A study of Homo sapiens with 688 samples.

Results

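Bortezomib, ixazomib and carfilzomib are small molecules that block the proteasome, and they were the proteasome inhibitors among the compounds given to U87 cells, a human glioblastoma line. Their wells were found by the drug name in the labels, 1 well of each compound on each of 2 plates, which makes 6 of the 688 samples of the series. The cells were exposed for 24 h to 0.01 µM bortezomib, 0.036 µM ixazomib (MLN2238) or 0.0038 µM carfilzomib (PR-171), doses that the study set at 20% growth inhibition. The controls were 4 wells with the vehicle DMSO and 4 wells left untreated, 2 of each on either plate, and the same plates held 178 wells of 89 other compounds. Plate A and plate B carried every compound at the same well position, so position and compound cannot be told apart. Each well of the PLATE-Seq libraries held the pooled lysate of 2 culture wells and gave tags from the 3′ ends of polyadenylated mRNA. The labels did not state whether the plates came from separate cultures, so the p-values measure the spread between these wells.

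The inhibitor wells held 457025 to 892411 counts, the DMSO wells 445250 to 588082 and the untreated wells 588619 to 880770. Of 9 genes typical of U87 cells, 8 averaged at least 20 CPM, counts scaled to the total of the well, in the inhibitor wells, while the astrocyte genes GFAP and AQP4 and the prostate genes KLK3, KLK2, TMPRSS2 and FOLH1 of another line in the series had no count there. A single transcript, the metallothionein MT2A, took 7.22% to 17.9% of the counts of an inhibitor well and 4.03% to 5.84% of those of a DMSO well. Untreated wells were at 5.22% to 11.6%.

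The 26S proteasome degrades proteins tagged with ubiquitin. Its 20S core is a barrel that holds the proteolytic sites, and its 19S regulatory particle recognises, unfolds and feeds in the substrate. Bortezomib and ixazomib are peptide boronic acids and carfilzomib is a peptide epoxyketone, and they act on the chymotrypsin-like site formed by PSMB5. When the proteasome is blocked, the membrane-bound factor NFE2L1 (NRF1) is known to be cut, released and sent to the genes of the proteasome subunits. Unfolded proteins activate HSF1, which drives HSPA1B and other chaperones, and oxidative stress stabilises NRF2, which drives HMOX1 and other antioxidant genes. Both NFE2L1 and NRF2 bind antioxidant response elements as partners of small MAF proteins.

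The promoters below belong to the 4 proteasome subunits that passed the test against DMSO with ixazomib, which also did so with bortezomib and carfilzomib, and to the heat shock marker HSPA1B. They are the 250 bases before the RefSeq start of each gene in GRCh38.p14, all on the plus strand, with matches to the searched letters in capitals. The letters were the antioxidant response element forms TGACTCAGC and TGACNNNGC, of which the second includes the first, the heat shock element core GAANNTTC, and the C/EBP-ATF element TGATGNAA, on both strands.
ADRM1, chr20:62302646-62302895: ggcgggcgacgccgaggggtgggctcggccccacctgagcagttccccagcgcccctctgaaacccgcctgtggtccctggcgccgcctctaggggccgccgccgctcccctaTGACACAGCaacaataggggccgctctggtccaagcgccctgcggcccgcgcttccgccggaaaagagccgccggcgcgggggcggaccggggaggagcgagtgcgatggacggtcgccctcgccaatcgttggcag
PSMA4, chr15:78540155-78540404: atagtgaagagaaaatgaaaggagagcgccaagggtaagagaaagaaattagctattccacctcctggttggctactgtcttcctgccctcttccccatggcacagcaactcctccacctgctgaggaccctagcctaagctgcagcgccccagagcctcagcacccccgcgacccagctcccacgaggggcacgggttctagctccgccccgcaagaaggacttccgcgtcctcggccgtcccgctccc
PSMB3, chr17:38752491-38752740: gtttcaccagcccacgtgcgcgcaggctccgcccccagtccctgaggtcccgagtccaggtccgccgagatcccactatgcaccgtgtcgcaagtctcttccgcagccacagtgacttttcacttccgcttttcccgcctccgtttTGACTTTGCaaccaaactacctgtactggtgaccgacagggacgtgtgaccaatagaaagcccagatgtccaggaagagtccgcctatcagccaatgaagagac
PSMC4, chr19:39970915-39971164: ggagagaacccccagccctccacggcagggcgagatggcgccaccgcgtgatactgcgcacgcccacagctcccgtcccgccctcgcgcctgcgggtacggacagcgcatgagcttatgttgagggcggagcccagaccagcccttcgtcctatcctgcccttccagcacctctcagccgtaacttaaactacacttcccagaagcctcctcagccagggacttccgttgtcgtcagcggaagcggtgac
HSPA1B, chr6:31827488-31827737: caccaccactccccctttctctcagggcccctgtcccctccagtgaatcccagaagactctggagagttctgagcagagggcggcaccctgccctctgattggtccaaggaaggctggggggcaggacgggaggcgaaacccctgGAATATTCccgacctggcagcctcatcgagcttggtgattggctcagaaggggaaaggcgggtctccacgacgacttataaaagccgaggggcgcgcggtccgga
The match TGACACAGC began 137 bases before the start of ADRM1, TGACTTTGC lay 104 bases before that of PSMB3 and GAATATTC 105 bases before that of HSPA1B. The windows of PSMA4 and PSMC4 held none of these letters. Of 33 subunits of the 26S proteasome, 28 had an entry and 4 of these (14.3%) held TGACNNNGC, against 11% of 27305 promoters. It was also in 7 of 13 promoters (53.8%) of proteasome assembly factors and activators and in 6 of 12 (50%) of ubiquitin genes and shuttle factors. Of the promoters of NRF2 targets, 4 of 23 (17.4%) held it, and none of 14 of cholesterol synthesis or 21 of matrix genes did. These shares were not tested. The form TGACTCAGC was in 0.465% of all promoters and in none of the 28. GAANNTTC was in 7 of 22 promoters (31.8%) of HSP70 genes and their partners and in 5.85% of all promoters. TGATGNAA stood in 4 of 31 promoters (12.9%) of the ATF4 list and in 3.19% of all.

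Transcripts of the proteasome subunits were higher with each inhibitor. Summed over the 32 subunits of the 26S proteasome that could be tested, plate A held 13251 CPM with bortezomib, 10851 with carfilzomib and 9310 with ixazomib, and 7340 and 7222 CPM in its DMSO wells. Plate B held 16531, 12243 and 11451 CPM with the same compounds, and 9019 and 9073 CPM in DMSO. No inhibitor well overlapped with the DMSO or untreated wells of its plate. Among the 92 compounds of the plates, bortezomib, carfilzomib and ixazomib held the ranks 1, 2 and 3 on both plates, and the next compound, the topoisomerase inhibitor teniposide, reached 8555 and 10018 CPM. On the log2 scale, the sum lay above the median of the compound wells of the plate by 0.93 and 0.91 for bortezomib, by 0.64 and 0.48 for carfilzomib and by 0.42 and 0.38 for ixazomib. The DMSO wells lay 0.04 to 0.08 above it. The doses of the compounds differed, so their values stand side by side without a comparison.

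**Figure D1:**
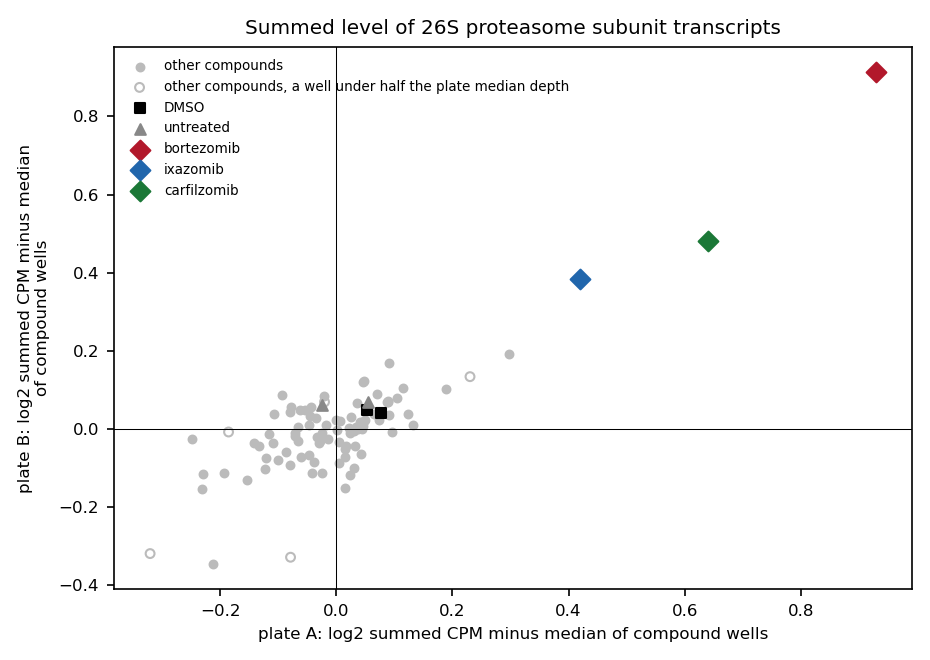
Summed CPM of 32 proteasome subunits on plate A (x axis) and plate B (y axis), as log2 difference from the median of the compound wells of the plate. Each point is a compound, or a pair of control wells, and open grey points had a well of low depth. The 3 inhibitors stand at the upper right, with bortezomib at 0.93 and 0.91.

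Of the 32 subunits, 25 rose with bortezomib, 4 with ixazomib and 10 with carfilzomib (edgeR, adjusted p under 0.05 over 8120 genes), and none fell, also at an unadjusted p under 0.05 and in DESeq2. Over all genes, 9.06% were called higher with bortezomib, 1.35% with ixazomib and 0.874% with carfilzomib. The median log2 fold change of the subunits was 1.02, 0.37 and 0.49, and that of all genes 0.00, 0.01 and -0.01. The mean of the 3 compounds raised 23 subunits, with a median of 0.59, against 3.63% of all genes called higher and a median of -0.02. With bortezomib left out, the mean of the other compounds raised 8 subunits at a median of 0.41, with 1.24% of all genes called higher. In the untreated wells 1 subunit, PSMA4, was called against DMSO, where 0.369% of all genes were called higher. These comparisons share the 4 DMSO wells.

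The calls rest on few wells. Over all genes, bortezomib had 1542 calls (19.0%), and 788 without its well of plate B, with 22 subunits called without its well of plate A and 20 without that of plate B. Over all genes, ixazomib had 218 calls (2.68%), and 24 or 60 without its well of plate A or plate B, while carfilzomib had 97, and 14 without either well. None of the 4 subunits was called with 1 ixazomib well left out, and 2 or 3 of the 10 were with 1 carfilzomib well left out. Of the genes named below, IGFBP3, LOXL2, LOC654433, NDUFA4, ST8SIA5 and EIF2A kept their ixazomib call whichever 1 of the 14 wells was left out, and PSMC4, PSMD13, PIR, NDUFA4 and EIF2A their carfilzomib call. The calls of the other named genes with these compounds ended without 1 well of that compound. Without the plate as a term of the fit, 361 genes and 15 subunits were called with bortezomib, and 2 genes and none of the subunits with carfilzomib. With ixazomib edgeR then called no gene, with 514 at an unadjusted p under 0.05, and DESeq2 with the plate term called 226. The mean of the inhibitors had 56 calls without the plate term, 5 of them subunits.

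**Figure D2:**
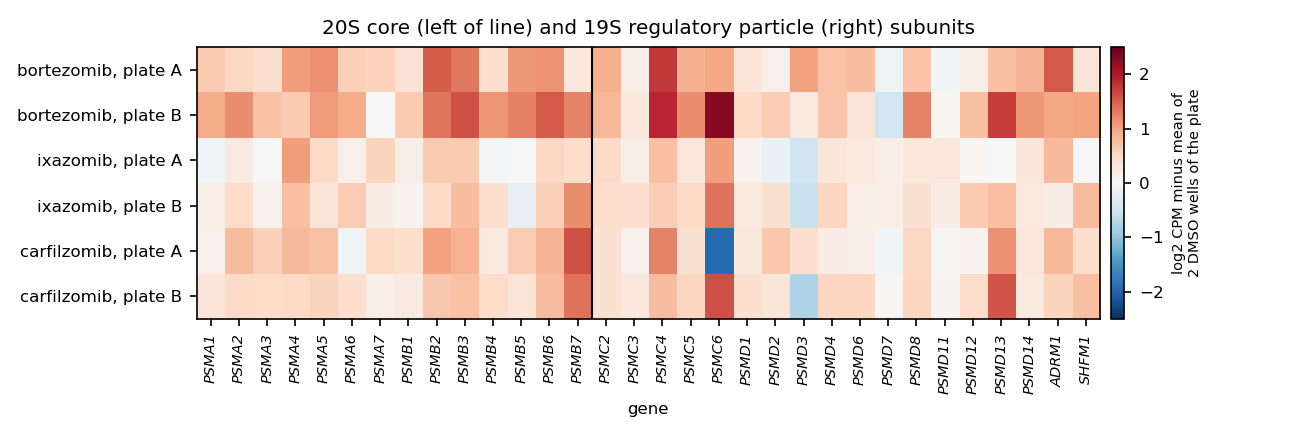
Log2 CPM of each proteasome subunit in each inhibitor well, minus the mean of the 2 DMSO wells of its plate. Red marks a higher and blue a lower level. The bortezomib wells of plates A and B are above both DMSO wells of their plate for 27 and 29 of 32 subunits. For all genes tested the shares are 28.4% and 31.2%.

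In the 20S core, 13 of 14 subunits rose with bortezomib, 2 with ixazomib and 7 with carfilzomib, with medians of 1.06, 0.40 and 0.64. PSMB3, a structural β subunit, was at 349 and 652 CPM with bortezomib on plates A and B, 219 and 368 with ixazomib and 253 and 359.7 with carfilzomib. The DMSO wells held 150.5, 126, 229.6 and 202 CPM, the first pair on plate A. Within each plate the inhibitor wells were above the DMSO wells and above the untreated wells, which held 107, 168, 193 and 208 CPM. The log2 fold changes of PSMB3 were 1.67 ± 0.17 (adjusted p 4.64e-11) with bortezomib, 0.74 ± 0.19 (0.0139) with ixazomib and 0.86 ± 0.18 (0.00466) with carfilzomib. Here and below, ± gives a standard error derived from the test, the size of the fold change divided by the square root of its F statistic.

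PSMB2, also a structural β subunit, was at 559 and 835 CPM with bortezomib, 306 and 459 with ixazomib and 392 and 529 with carfilzomib. Its DMSO wells were at 195.4, 191.8, 294.2 and 368.9 CPM, below the inhibitor wells of the same plate. PSMB2 rose by 1.63 ± 0.16 (adjusted p 8.63e-12) with bortezomib and by 0.90 ± 0.17 (0.000879) with carfilzomib, while ixazomib had 0.58 ± 0.17 (0.0501). PSMB6, the subunit of the caspase-like site, rose by 1.53 ± 0.16 (adjusted p 1.02e-10) with bortezomib and by 0.87 ± 0.17 (0.00167) with carfilzomib, and had 0.57 ± 0.18 (0.0628) with ixazomib. PSMB5, the subunit that the compounds bind, was at 178 and 398 CPM with bortezomib, 83.1 and 144 with ixazomib, 129.8 and 206 with carfilzomib and 94.3, 72.2, 196 and 137 in DMSO. It rose with bortezomib by 1.37 ± 0.20 (adjusted p 6.08e-07), and carfilzomib had 0.52 ± 0.21 (0.333) and ixazomib -0.10 ± 0.24 (0.901). PSMA4, an α ring subunit, was at 264 and 366 CPM with bortezomib, 260.4 and 394 with ixazomib, 222 and 328 with carfilzomib, 124, 128, 219 and 247 in DMSO and 200.5, 175, 272 and 385 in untreated wells, which reached into the inhibitors' range. PSMA4 rose by 1.04 ± 0.18 (adjusted p 1.13e-05), 0.91 ± 0.18 (0.00169) and 0.70 ± 0.18 (0.034) with bortezomib, ixazomib and carfilzomib, and by 0.61 ± 0.15 (0.0405) in the untreated wells.

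In the 19S particle, 12 of 18 tested subunits rose with bortezomib, 2 with ixazomib and 3 with carfilzomib, with medians of 0.86, 0.36 and 0.45. PSMC4, an ATPase of the base, was at 1473 and 1628 CPM with bortezomib, 726 and 672 with ixazomib and 1024 and 749 with carfilzomib. DMSO wells held 509.8, 365, 449 and 423 CPM and untreated wells 416 to 589.7, so that every inhibitor well was above every control well. PSMC4 rose by 2.03 ± 0.14 (adjusted p 5.59e-17) with bortezomib, 0.70 ± 0.15 (0.00404) with ixazomib and 1.06 ± 0.15 (3.01e-06) with carfilzomib. ADRM1, a ubiquitin receptor of the particle, was at 2020.1 and 1504 CPM with bortezomib, 1228 and 876 with ixazomib and 1241 and 1125 with carfilzomib. Its DMSO wells were at 734, 662, 859 and 687 CPM and its untreated wells at 959.9, 1038, 823 and 875, so the ixazomib well of plate B lay at the top of the controls. ADRM1 rose by 1.44 ± 0.14 (adjusted p 4.25e-12), 0.51 ± 0.14 (0.0353) and 0.73 ± 0.14 (0.00167) with bortezomib, ixazomib and carfilzomib. PSMD13, a lid subunit, rose with bortezomib by 1.50 ± 0.24 (adjusted p 3.39e-06) and with carfilzomib by 1.44 ± 0.24 (0.000165), and had 0.45 ± 0.27 (0.482) with ixazomib. Of the other lid subunits, PSMD8 rose by 1.19 ± 0.17 (adjusted p 1.69e-07) and PSMD14, the deubiquitinase of the lid, by 1.15 ± 0.20 (1.47e-05) with bortezomib. PSMD6 rose by 0.77 ± 0.19 (adjusted p 0.00236) and SHFM1 by 0.80 ± 0.22 (0.0068), and these calls ended without the bortezomib well of plate A and of plate B, respectively. With bortezomib PSMD3, PSMD12, PSMD7 and PSMD11 were not called, of which PSMD7 had -0.11 ± 0.17 (0.71) and PSMD11 0.18 ± 0.17 (0.505).

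The immunoproteasome is an interferon-inducible variant of the core. None of its 3 subunits was called with any inhibitor, by edgeR at an unadjusted p under 0.05 or by DESeq2, and the medians were -0.34, -0.31 and -0.23. PSMB9 was at 10.2 to 66 CPM in the inhibitor wells and 14.4 to 69.7 CPM in DMSO, and the mean of the inhibitors had 0.01 ± 0.30 (adjusted p 0.991). These subunits had low counts, and small changes were not detectable at this depth. Among assembly factors and activators, 4 of 14 rose and 1 fell with bortezomib, against 9.06% and 9.93% of all genes. There were 2 rises without either bortezomib well or the second DMSO well of plate A. With carfilzomib 1 rose, against 0.874% of all genes. That gene was POMP, the chaperone that matures the core, at 819 and 1011 CPM with bortezomib, 584 and 498 with ixazomib, 576 and 628 with carfilzomib and 404, 293, 449 and 405 in DMSO, without overlap between inhibitor and DMSO wells. POMP rose by 1.43 ± 0.15 (adjusted p 7.23e-11) with bortezomib and 0.69 ± 0.16 (0.0101) with carfilzomib, and had 0.50 ± 0.16 (0.0768) with ixazomib. PSME3, which encodes the nuclear activator PA28γ, rose by 0.81 ± 0.15 (adjusted p 5.47e-05) with bortezomib.

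The transcript of NFE2L1 itself was at 64 and 110.4 CPM with bortezomib and 69.6, 59.8, 78.2 and 76.6 CPM in DMSO and was not called (0.47 ± 0.26, adjusted p 0.229). Of 7 tested genes of NFE2L1 and its processing, 3 rose with bortezomib, against 9.06% of all genes. For ixazomib and carfilzomib the list had no call in edgeR or DESeq2, with 0 and 3 higher at an unadjusted p under 0.05. VCP, the ATPase that extracts proteins from the endoplasmic reticulum, was at 462 and 646 CPM with bortezomib and 350.4, 293, 393 and 391 in DMSO and rose by 0.82 ± 0.15 (adjusted p 5.55e-05). In the list of ubiquitin genes and shuttle factors, 8 of 15 rose with bortezomib. With ixazomib and carfilzomib it had no call in edgeR or DESeq2, and 2 and 4 genes were higher at an unadjusted p under 0.05.

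The heat shock marker HSPA1B differed between plates in all groups, at 498 and 70.7 CPM on plates A and B with bortezomib, 219.5 and 29.1 with carfilzomib and 105 and 19.8 with ixazomib. DMSO wells were at 98.8, 115, 11.9 and 17.4 CPM and untreated wells at 79.8, 68.3, 9.37 and 14.8. Bortezomib and carfilzomib were above the DMSO wells of either plate, and ixazomib lay between those of plate A and just above those of plate B. HSPA1B rose by 2.42 ± 0.24 (adjusted p 5.12e-12) with bortezomib and 1.06 ± 0.25 (0.0189) with carfilzomib, and had 0.12 ± 0.30 (0.911) with ixazomib. Without its plate A well, carfilzomib had an adjusted p of 0.718. Among the 92 compounds of a plate, bortezomib ranked 1 on both plates, carfilzomib 3 and 9 on plates A and B, and ixazomib 38 and 33. HSPA1B shares nearly all of its coding sequence with HSPA1A, so the split of reads between these genes is uncertain.

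In the list of HSP70 genes and their partners, 3 of 17 tested members rose and 1 fell with bortezomib, the fall not without the bortezomib well of plate B, and HSPA1B was the member called with carfilzomib. Among all genes tested, 9.06% were called higher and 9.93% lower with bortezomib, and 1.35% and 0.874% higher with ixazomib and carfilzomib. With ixazomib the list had no call in edgeR, 5 higher and 3 lower at an unadjusted p under 0.05, and 2 called higher by DESeq2. DNAJB1, the HSP40 partner of HSP70, was at 494 and 919 CPM with bortezomib against 312, 291, 549 and 557 in DMSO, a rise of 0.92 ± 0.15 (adjusted p 3.28e-06). The constitutive HSPA8 was at 888 and 1136 CPM with bortezomib and 858 to 1089 in DMSO and was not called (0.22 ± 0.14, 0.297). Of 22 tested genes of HSP90, small heat shock proteins and chaperonins, 10 rose with bortezomib and 2 with ixazomib. With carfilzomib none was called in edgeR or DESeq2, and 2 were higher at an unadjusted p under 0.05. HSP90AB1, a cytosolic HSP90, was at 1317 and 1749.9 CPM with bortezomib, 1044 and 2119 with ixazomib, 1015 and 1551 with carfilzomib and 929.8, 848, 1316 and 1359 in DMSO. Every inhibitor well was above the DMSO wells of its plate, and the rise was 0.68 ± 0.13 (adjusted p 9e-05) with bortezomib and 0.49 ± 0.13 (0.0276) with ixazomib. HSPE1, the mitochondrial cochaperonin, rose by 1.21 ± 0.20 (adjusted p 7.91e-06) with bortezomib.

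**Figure D3:**
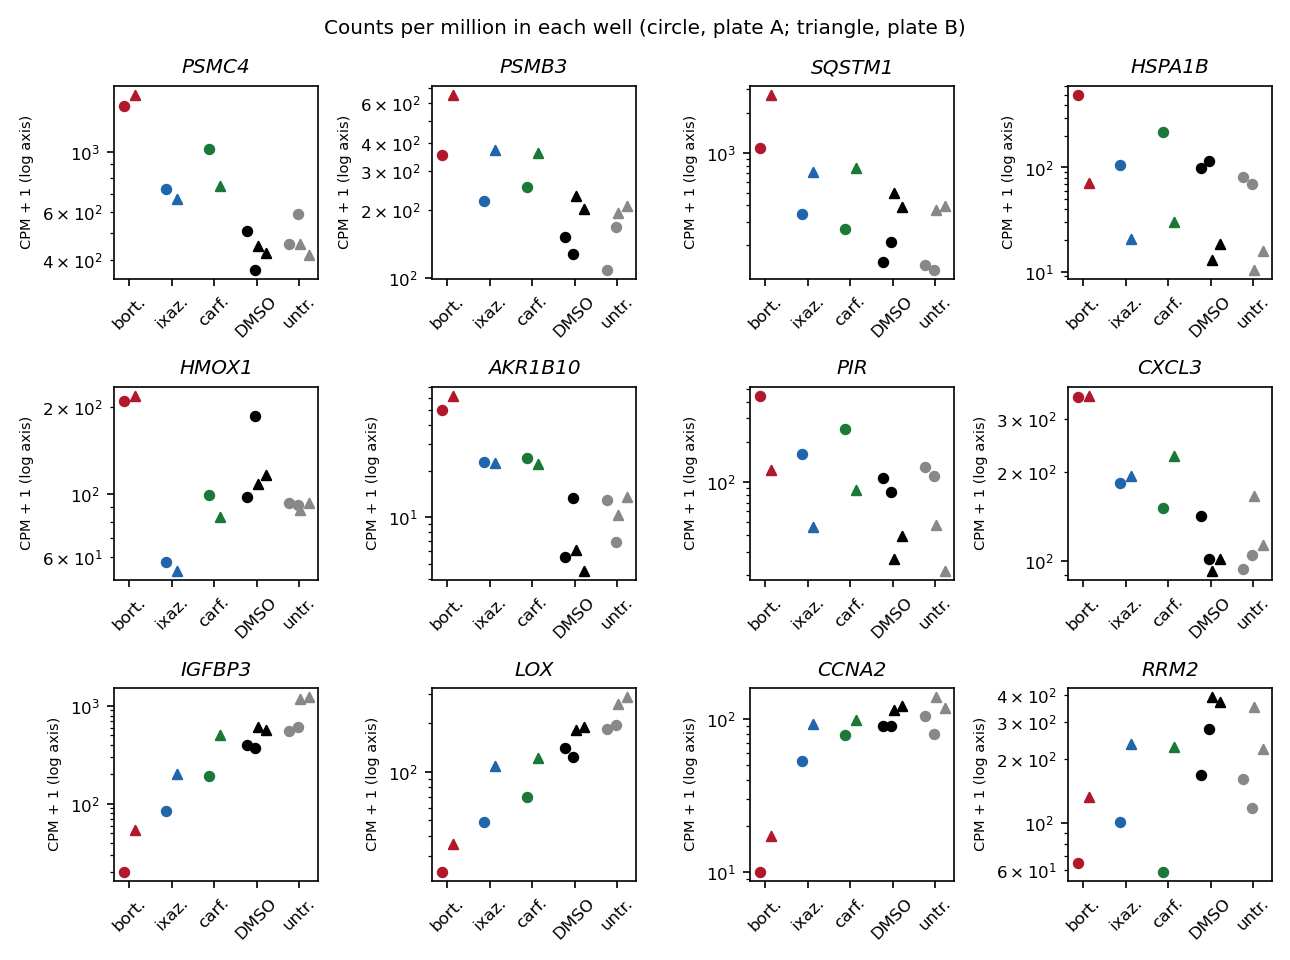
CPM plus 1 on a log axis in every inhibitor, DMSO and untreated well for 12 genes, with circles for plate A and triangles for plate B. PSMC4 is above all controls in the 6 inhibitor wells, and HMOX1 is higher with bortezomib, at 209 and 218 CPM, and lower with ixazomib, at 56.9 and 52.8 CPM.

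The second marker, HMOX1, encodes heme oxygenase, a target of NRF2. It was at 209 and 218 CPM with bortezomib, 98 and 81.8 with carfilzomib and 56.9 and 52.8 with ixazomib, while DMSO wells were at 96.6, 186, 107 and 115 and untreated wells at 86.7 to 92. The bortezomib wells were above every control and the ixazomib wells below every control. HMOX1 rose with bortezomib (0.96 ± 0.21, adjusted p 0.000601), fell with ixazomib (-1.17 ± 0.27, 0.007) and was not called with carfilzomib (-0.43 ± 0.24, 0.576). Without either ixazomib well its call ended, at an adjusted p of up to 0.185. The mean of the inhibitors was -0.21 ± 0.18 (adjusted p 0.563), and 0.01 without the second DMSO well of plate A, the highest of the controls.

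Of the 29 tested targets of NRF2, 21 rose with bortezomib, 2 rose and 1, HMOX1, fell with ixazomib, and 4 rose with carfilzomib, with medians of 0.96, 0.34 and 0.48. The shares of all genes called higher were 9.06%, 1.35% and 0.874%, and 1.33% were called lower with ixazomib. FTL, the ferritin light chain, was at 6638 and 9852 CPM with bortezomib, 2731 and 4141 with ixazomib and 2535 and 4464 with carfilzomib. Its DMSO wells held 1659.7, 1619, 3469 and 2467 CPM, below the inhibitor wells of the same plate. FTL rose by 2.07 ± 0.13 (adjusted p 1.21e-16), 0.63 ± 0.14 (0.00494) and 0.66 ± 0.14 (0.00446) with bortezomib, ixazomib and carfilzomib, though it has many processed pseudogenes and its count is uncertain. PIR, which encodes the iron protein pirin, was at 443 and 122 CPM with bortezomib, 162 and 44.6 with ixazomib, 247 and 86.3 with carfilzomib and 106, 82.5, 25.5 and 38.3 in DMSO. It rose by 2.32 ± 0.23 (adjusted p 1.01e-11) with bortezomib and 1.49 ± 0.24 (9.96e-05) with carfilzomib, and ixazomib had 0.69 ± 0.27 (0.189). AKR1B10, an aldo-keto reductase, was at 48.6 and 60.8 CPM with bortezomib, 21.9 and 21.5 with ixazomib, 23.5 and 21.3 with carfilzomib and 4.49, 12.4, 5.1 and 3.48 in DMSO, with no overlap. It rose by 3.29 ± 0.49 (adjusted p 5.05e-07) with bortezomib, ixazomib had 1.78 ± 0.58 (0.0822) and carfilzomib 1.86 ± 0.54 (0.0712), and the mean of the latter compounds rose by 1.82 ± 0.48 (0.024). The thioredoxin reductase TXNRD1 rose by 1.33 ± 0.26 (adjusted p 8.89e-05) with bortezomib, and NQO1, a quinone reductase, by 0.70 ± 0.17 (0.00152), or with an adjusted p of 0.412 without the plate B well. The aldo-keto reductases have close paralogs, and the split of their reads is uncertain.

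SQSTM1 encodes p62, a receptor that brings ubiquitinated cargo to autophagy. It was at 1089 and 2735 CPM with bortezomib, 344 and 708 with ixazomib, 262 and 759.7 with carfilzomib, 148, 212, 491 and 389.7 in DMSO and 129 to 395 in untreated wells. Each inhibitor well was above the controls of its plate. SQSTM1 rose by 2.81 ± 0.15 (adjusted p 2.93e-22), 0.82 ± 0.16 (0.001) and 0.73 ± 0.16 (0.00538) with bortezomib, ixazomib and carfilzomib. In the list of autophagy receptors and LC3 genes, 5 of 12 rose and 1 fell with bortezomib, against 9.06% and 9.93% of all genes. Without the bortezomib well of plate A 4 rose and without that of plate B 3 did, and in neither case was the fall called. SQSTM1 was the member called with ixazomib and with carfilzomib.

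The ATF4 branch responds to amino acid lack and other stress. With bortezomib, 11 of 33 of its genes rose, or 8 with either bortezomib well left out, against 9.06% of all genes, and 3 fell, against 9.93%, while with ixazomib 1 rose and 1 fell. With carfilzomib none was called in edgeR, 2 were higher and 2 lower at an unadjusted p under 0.05, and DESeq2 called 1 lower. SLC3A2, an amino acid transporter subunit, was at 293 and 362 CPM with bortezomib and 53.6 to 158 in DMSO, a rise of 1.88 ± 0.28 (adjusted p 2.33e-05). ASNS, asparagine synthetase, rose by 1.32 ± 0.26 (adjusted p 0.000105) with bortezomib. DDIT4, an inhibitor of mTORC1, was at 75.5 and 177 CPM with bortezomib against 227, 353, 556 and 525 in DMSO, and fell (-1.56 ± 0.20, adjusted p 1.18e-08). With bortezomib ATF4 itself (0.31 ± 0.33, 0.574) and ATF3 (0.46 ± 0.27, 0.258) were not called. In the list of the endoplasmic reticulum's unfolded protein response, 1 of 21 genes was higher and 1 lower with bortezomib and 1 was lower with ixazomib, while with carfilzomib edgeR and DESeq2 called none, with 1 lower at an unadjusted p under 0.05. Of its chaperones, HSPA5 (BiP) had 0.75 ± 0.25 (0.0294) and HSP90B1 -0.77 ± 0.17 (0.000866) with bortezomib, and both calls ended without a bortezomib well, at adjusted p of up to 0.168 and 0.304.

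Metallothioneins bind zinc and copper. With bortezomib, 3 of 7 rose and 2 fell, and 1 rose, MT2A, without the bortezomib well of plate B. With ixazomib 2 rose and 1 fell, where 1.35% of all genes were called higher and 1.33% lower, against 9.06% and 9.93% with bortezomib. MT2A was at 178623 and 94084 CPM with bortezomib, 124569 and 72451 with ixazomib and 95089 and 72204 with carfilzomib, and DMSO wells held 40339 to 58433. MT2A rose by 1.62 ± 0.18 (adjusted p 6.58e-05) with bortezomib and 0.99 ± 0.18 (0.0148) with ixazomib. The untreated wells, at 52233 to 116165 CPM, overlapped with those of the inhibitors, and the mean of the inhibitors was no longer called once they joined the controls, at 0.72 (0.0659). MT1L, whose reads are hard to tell from those of its family, was at 38.4 and 114 CPM with bortezomib against 157 to 342 in DMSO (-1.46 ± 0.24, adjusted p 3.93e-06).

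**Figure D4:**
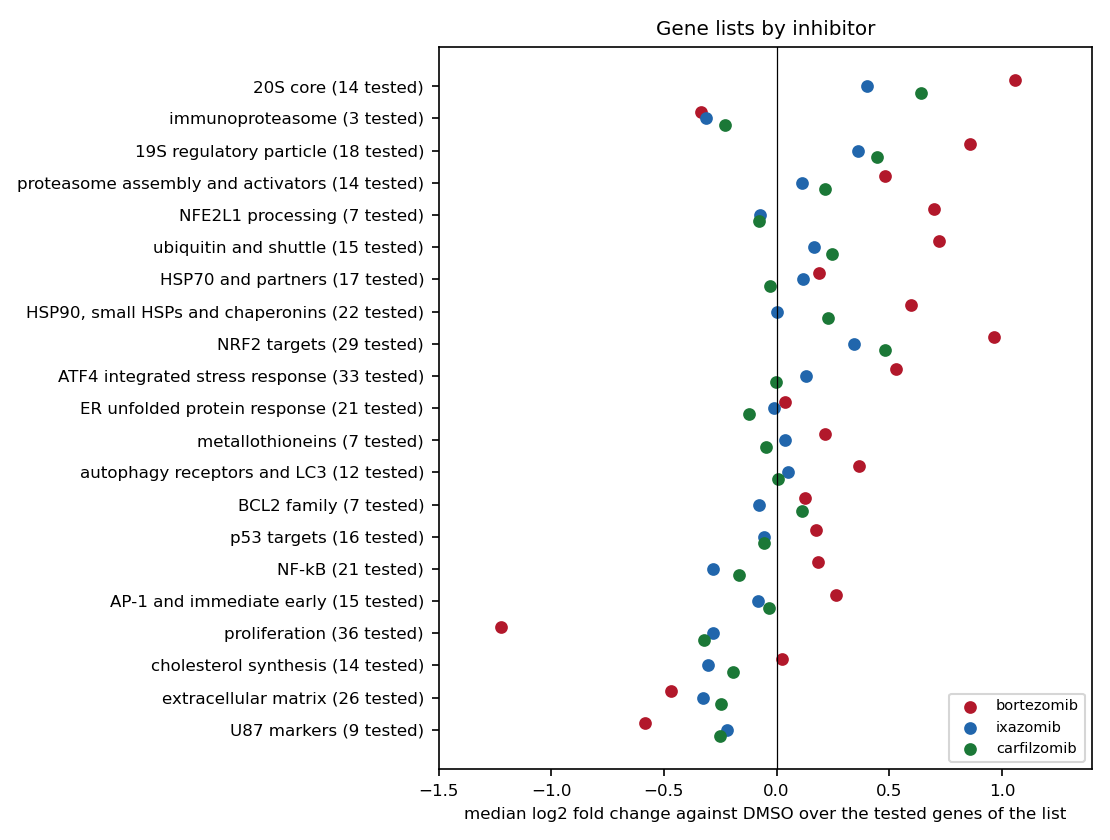
Median log2 fold change against DMSO over the tested genes of each list, with 1 point for each inhibitor. The 20S and 19S proteasome lists and the NRF2 targets lie above 0 for all compounds, and the proliferation list below 0, at -1.22 for bortezomib.

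Genes of the cell cycle fell with bortezomib in most of the list. Of 36 tested proliferation genes, 23 fell with bortezomib, 2 with ixazomib and 2 with carfilzomib, and the medians were -1.22, -0.28 and -0.32. Over all genes, 9.93%, 1.33% and 0.320% were called lower. CCNA2, the S and G2 cyclin, was at 8.96 and 16.1 CPM with bortezomib, 52.5 and 92.4 with ixazomib, 77.3 and 98.6 with carfilzomib and 89.8, 88.7, 114 and 122 in DMSO. The bortezomib wells were far below the others (-2.84 ± 0.34, adjusted p 1.74e-09). RRM2, a subunit of ribonucleotide reductase, was at 64 and 131 CPM with bortezomib, 101 and 236 with ixazomib, 58 and 226 with carfilzomib and 168, 276, 393 and 372 in DMSO. Every inhibitor well was below the DMSO wells of its plate, and RRM2 fell with bortezomib (-1.47 ± 0.24, adjusted p 1.02e-05), ixazomib (-0.87 ± 0.24, 0.0287) and carfilzomib (-1.15 ± 0.23, 0.00419). Untreated wells, at 161, 117, 350.4 and 223 CPM, overlapped with the inhibitors on plate B. Fewer dividing cells and less RNA per cell cannot be told apart in such wells.

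In the matrix list, 11 of 26 genes fell and 1 rose with bortezomib, the rise not without the bortezomib well of plate B. With ixazomib 7 fell and with carfilzomib 2, and fewer did with either well of that compound left out. The shares of all genes called lower were 9.93%, 1.33% and 0.320%, and 9.06% were called higher with bortezomib. LOX, lysyl oxidase, was at 23 and 34.7 CPM with bortezomib, 48.1 and 107 with ixazomib, 69 and 119.9 with carfilzomib, 139, 122, 180.2 and 188 in DMSO and 182 to 288 in untreated wells. All inhibitor wells were below all controls. LOX fell with bortezomib (-2.25 ± 0.26, adjusted p 1.23e-09) and ixazomib (-1.01 ± 0.24, 0.00861), and had -0.69 ± 0.22 (0.121) with carfilzomib. LOXL2, a related oxidase, was at 201 and 233 CPM with bortezomib, 225 and 218 with ixazomib, 388 and 388 with carfilzomib and 573, 615, 349 and 574 in DMSO. It fell with bortezomib (-1.07 ± 0.18, adjusted p 4.99e-06) and ixazomib (-1.21 ± 0.18, 1.23e-05). TIMP3, an inhibitor of metalloproteinases, fell with bortezomib (-2.02 ± 0.23, adjusted p 3.31e-10), ixazomib (-0.78 ± 0.21, 0.0202) and carfilzomib (-0.79 ± 0.20, 0.026) and rose in the untreated wells (0.86 ± 0.15, 0.000392).

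IGFBP3, a secreted binding protein of insulin-like growth factors, was at 19.2 and 53.3 CPM with bortezomib, 83.1 and 201 with ixazomib, 191 and 505 with carfilzomib and 395, 375, 616 and 572 in DMSO. It fell with bortezomib (-3.63 ± 0.22, adjusted p 1.35e-19) and ixazomib (-1.83 ± 0.19, 2.1e-09), and carfilzomib had -0.53 ± 0.17 (0.115). Its untreated wells lay apart from DMSO on the other side, at 550.4, 606, 1192 and 1242 CPM (0.90 ± 0.13, 3.33e-05). Of the 9 U87 markers, 4 fell with bortezomib, against 9.93% of all genes. With ixazomib and carfilzomib none was called in edgeR or DESeq2, and 2 and 2 were lower and, with carfilzomib, 1 higher at an unadjusted p under 0.05. VIM, the intermediate filament vimentin, was at 1618 and 2273 CPM with bortezomib against 3059 to 3535 in DMSO (-0.58 ± 0.12, adjusted p 0.000227).

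In the NF-κB list, 2 of 21 genes rose and 5 fell with bortezomib, against 9.06% and 9.93% of all genes. With ixazomib 1 rose and 2 fell, against 1.35% and 1.33%, and with carfilzomib 2 rose, against 0.874%. Without the bortezomib well of plate A 1 rose and 4 fell, and without that of plate B 2 rose and 2 fell. The chemokine CXCL3 was at 355 and 358 CPM with bortezomib, 182 and 193 with ixazomib and 150.5 and 225 with carfilzomib, all above the DMSO wells, at 141, 101, 91.8 and 101. It rose by 1.92 ± 0.20 (adjusted p 6.5e-11), 0.81 ± 0.22 (0.0277) and 0.85 ± 0.21 (0.0263) with bortezomib, ixazomib and carfilzomib. The adhesion molecule ICAM1 had 19.2 to 30.3 CPM in the inhibitor wells and 47.2 to 69.6 in DMSO, and for the mean of the inhibitors it fell (-1.17 ± 0.26, adjusted p 0.00142). CCL2, another chemokine, fell with bortezomib (-1.25 ± 0.25, adjusted p 0.000113) and ixazomib (-1.01 ± 0.25, 0.012).

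For the mean of the 3 inhibitors against DMSO, 295 genes rose and 364 fell, 8.12% of those tested, with 4.48% of all genes lower. In 51 and 73 of them all 6 inhibitor wells were above or below all 4 DMSO wells. Called or not, 62 (0.76%) and 111 (1.37%) of the 8120 genes tested stood above or below in this way. Outside the lists, the largest rises by the naming rule included NDUFA4, a mitochondrial protein of complex IV. It was at 798 to 1812 CPM in the inhibitor wells against 395 to 501 in DMSO (1.43 ± 0.13, adjusted p 3.68e-12). Bortezomib stood 1.30 above the median of the compound wells of the plate, carfilzomib 0.34 and ixazomib 0.32 (log2 CPM, mean of both plates). These were the ranks 1, 16 and 21 of 92 compounds. MAP1A, a microtubule-associated protein, was at 409 to 1016 CPM against 258 to 378 (1.22 ± 0.13, adjusted p 1.8e-10). CTSD, the lysosomal protease cathepsin D, was at 35.9 to 150.1 CPM against 15.7 to 34 (1.52 ± 0.30, adjusted p 0.000287). These wells did not overlap with DMSO, as the rule required. RRAD, a small GTPase, was at 87 to 387 CPM against 38.2 to 86.7 (1.40 ± 0.19, adjusted p 1.56e-07). The transcript LOC654433, annotated antisense and counted with strand, was at 349 and 337 CPM with bortezomib, 337 and 183 with ixazomib, 126 and 95.2 with carfilzomib and 94.3, 76.3, 52.7 and 60.9 in DMSO, and rose with bortezomib (2.51 ± 0.21, adjusted p 1.73e-14) and ixazomib (1.87 ± 0.22, 2.26e-08). Falls included IGFBP1, a relative of IGFBP3, at 3.84 to 41.5 CPM against 51.7 to 90.1 (-2.02 ± 0.26, adjusted p 6.52e-08), and the sialyltransferase gene ST8SIA5, at 6.4 to 33.1 against 40.4 to 108 (-1.98 ± 0.28, adjusted p 4.38e-07).

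In other genes named by the rule the untreated wells also stood apart from DMSO. EIF2A, a translation initiation factor, was at 49.9 to 187 CPM with the inhibitors, 23.8 to 47.4 in DMSO and 76.2 to 128 in untreated wells. Its rise of 1.71 ± 0.24 (adjusted p 3.98e-07) became 0.61 (0.42) when the untreated wells joined the controls. TAF15, an RNA-binding protein, was at 15.7 to 74.4 CPM with the inhibitors, 90.5 to 308 in DMSO and 17 to 64.6 in untreated wells, and its change of -1.85 ± 0.24 (adjusted p 5.93e-07) became -1.14 (0.277). SETD5 had 8.96 to 57.8 CPM, 59.8 to 117 CPM and 11.9 to 58.6 CPM in these groups, and -1.71 ± 0.26 (adjusted p 2.87e-06) became -1.12 (0.0835). For these genes the inhibitor and untreated wells overlapped.

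Against the mean of the 89 other compounds on both plates, 946 genes were higher and 506 lower with the inhibitors, 14.5% of 10037, and the median over all genes was 0.05. Each compound had its own term in this fit. The p-values and standard errors therefore measure the spread between wells of the same label, not the spread among the compounds. Higher genes made up 9.43% of all and 31 of the 33 proteasome subunits, at a median of 0.64. PSMC4 was higher by 1.12 ± 0.06 (adjusted p 3.97e-50), PSMB3 by 1.04 ± 0.07 (2.56e-31), SQSTM1 by 1.19 ± 0.06 (1.39e-48) and HSPA1B by 1.24 ± 0.14 (5.67e-14), while HMOX1 had 0.30 ± 0.14 (0.165). Of 30 NRF2 targets, 19 were higher. In the proliferation list 14 of 37 were lower, and in the matrix list 14 of 27, with 5.04% of all genes called lower. AKR1B10 was higher by 2.75 ± 0.26 (adjusted p 1.68e-20) and ALDH2, aldehyde dehydrogenase, by 2.15 ± 0.29 (5.08e-11). IGFBP3 was lower (-2.07 ± 0.10, adjusted p 1.42e-52), as was IGFBP1 (-1.69 ± 0.21, 1.02e-12). TUBB4A, a tubulin, passed the test at 84.5 and 21.1 CPM with bortezomib, 19.7 and 0 with ixazomib and 29 and 8.96 with carfilzomib, and without the plate A well of ixazomib its adjusted p was 1.

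The ranks among compounds differed from gene to gene. Of the 32 subunits, 23 and 28 were among the highest 5 of 92 compounds with bortezomib on plates A and B, 19 and 20 with carfilzomib and 11 and 14 with ixazomib. For all genes the shares were 7.62% and 10.8% with bortezomib, 3.76% and 2.98% with carfilzomib, and 8.71% and 8.65% with ixazomib. For SQSTM1, the histone deacetylase inhibitor romidepsin, whose plate A well had low depth, stood at 2.51 above the plate median and bortezomib at 2.49 (log2 CPM, mean of both plates). For HMOX1, romidepsin was at 2.10, bortezomib at 1.34, carfilzomib at 0.10 and ixazomib at -0.58. For IGFBP3, bortezomib was the lowest of the 92 compounds at -3.94 and ixazomib the next at -1.96.

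On the 2 plates of the second compound set, U87 cells were given celastrol at 8.3691 µM, dihydrocelastrol at 9.1864 µM and pristimerin, the methyl ester of celastrol, at 0.85501 µM. These are triterpenoid compounds, and celastrol is known to raise the heat shock response. The change of the inhibitors against the DMSO wells of their plates was set against that of these compounds against the DMSO wells of theirs. The doses differed, so the test is of the treatments as given. Both celastrol wells were shallow, with 45384 and 43487 counts, and the values are given with and without them. With them, 254 genes were higher and 52 lower for the inhibitors, 3.28% of 9323, with 0.558% of all genes lower, the median over all genes was 0.33, and another normalization (RLE) gave 96 higher and 63 lower. Without them, 67 were higher and 78 lower, 1.58% of 9154, with a median of -0.01.

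Without the celastrol wells, 11 of 32 proteasome subunits were higher for the inhibitors than for dihydrocelastrol and pristimerin, against 0.732% of all genes, with a median difference of 0.64. With the celastrol wells it was 19 of 32, against 2.72% of all genes. Without them PSMC4 differed by 0.82 ± 0.19 (adjusted p 0.0107), PSMB3 by 0.91 ± 0.21 (0.00933) and SQSTM1 by 1.46 ± 0.19 (1.91e-07) on the log2 scale. IGFBP3 was lower for the inhibitors (-2.53 ± 0.18, adjusted p 2.8e-16). HSPA1B had 0.85 ± 0.36 (0.315) and PSMA4 had -0.15 ± 0.22 (0.872), and neither passed. The values of the single compounds that follow come from the fit that included the celastrol wells. Against the DMSO wells of the second set, PSMA4 rose with dihydrocelastrol (0.99, adjusted p 0.00104), where 1.65% of all genes were called. It also rose with pristimerin (1.06, 0.000583), where 1.13% were. MT2A rose with dihydrocelastrol (1.30, adjusted p 0.0163) and pristimerin (1.89, 0.000932), and FTL had 1.32 (3.12e-07) with dihydrocelastrol and 0.00 (0.998) with pristimerin.

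**Figure D5:**
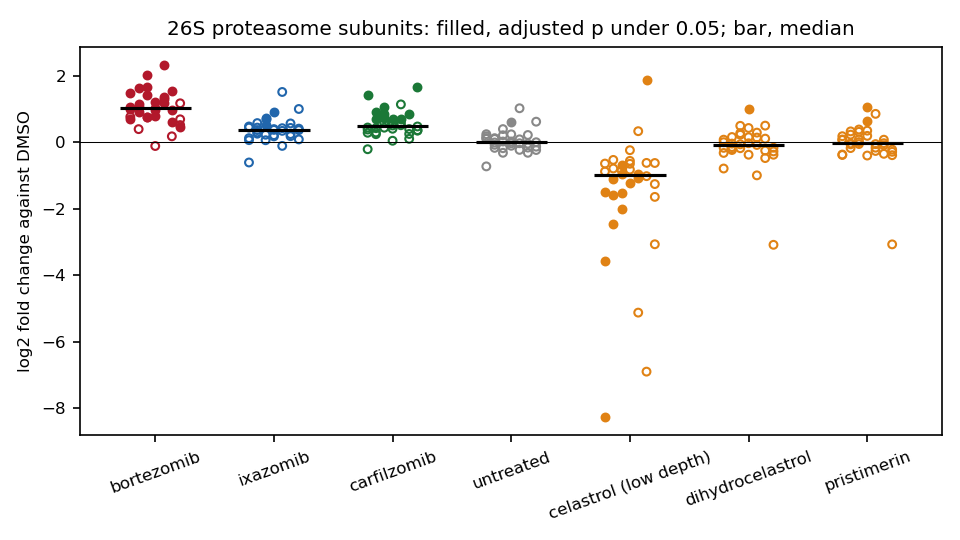
Log2 fold change of each proteasome subunit against the DMSO wells of the same plates, for the 3 inhibitors, untreated wells and 3 celastrol compounds, filled where the adjusted p was under 0.05, with a bar at the median. The medians were 1.02 for bortezomib and 0.02 for untreated wells, and the celastrol wells had low depth.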

How the data were processed

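PLATE-Seq libraries of U87 wells were made by the submitters from 3′ ends of captured mRNA, aligned with BWA to the known-gene transcriptome of hg19, and uniquely mapped reads were counted per gene symbol. The authors deposited raw counts, 1 table per plate, and the 384 U87 columns of 4 tables were used. Spike-in rows, 0.021% of counts, were left out, which kept 23710 symbols. CPM scale counts to the total of the well, without length correction. A count carried no molecular identifier here.

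The tables of plates A and B were fitted with edgeR 4.0.16 (quasi-likelihood, TMM, filterByExpr, plate as a term, R 4.3.3), with Benjamini-Hochberg adjustment over all tested genes. Alternatives included DESeq2 1.42.0. Calls used an adjusted p under 0.05. The fit against DMSO held the 6 inhibitor, 4 DMSO and 4 untreated wells, the fit against other compounds all wells of both plates, and the fit with celastrol compounds 28 wells. Scripts were tested on simulated data.

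Plate deviations of each compound correlated with those of DMSO (0.476 to 0.569 for the inhibitors), so the plate pairs the wells.

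The compounds and lists were chosen with earlier results of these data known. Named genes were the markers, the 12 largest rises and 8 largest falls of the mean of the inhibitors among genes with at least 20 CPM and no overlap with DMSO, up to 4 called members of each list, 3 each way per compound and 4 each way in the other fits. Those with counts near 0 in DMSO or calls ended by 1 well were mostly left out of the text. Some named list members are not reported here. PSMA4, PSMB5, PSMD7, PSMD11, NFE2L1, HSPA8, FTL, NQO1, TXNRD1, ATF4, ATF3 and HSPA5 were added after their values were seen. Promoters came from RefSeq on GRCh38.p14.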

Additional observations from a re-analysis of the deposited data

Results flagged for a closer look

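The change against DMSO differed between the inhibitors and the celastrol compounds for 306 genes, by a test of the difference itself. Both celastrol wells had low depth, and without them the count was 145. The part of depth in the difference was not tested. In the 4 DMSO wells no named value stood apart from the others by Dixon's criterion. With 4 wells spread over plates that differed, as for HSPA1B, the criterion can hardly flag a well, so it clears no control well. For the mean of the inhibitors, HMOX1 turned sign without the second DMSO well of plate A.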

How the results depend on the processing

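Plate served as the replicate block, and without the block the calls fell to 361 with bortezomib, 0 with ixazomib (edgeR; 514 genes at an unadjusted p under 0.05), 2 with carfilzomib, 56 for the mean of the inhibitors, 0 for untreated wells (308 at an unadjusted p under 0.05), 445 against other compounds and 6 against the celastrol compounds. In the blocked fit DESeq2 called 226 genes with ixazomib and 57 in untreated wells. With all wells of both plates in the fit there were 347 calls with ixazomib, 222 with carfilzomib and 168 in untreated wells, and untreated wells had 91 with no filter on low counts. Against the celastrol compounds, RLE normalization gave 159 and the fit without wells of low depth 145. With bortezomib left out of the mean, an alternative chosen after seeing the data, 202 genes were called. Leaving out 1 well at a time gave 788 to 1616 calls with bortezomib, 24 to 257 with ixazomib, 14 to 113 with carfilzomib, 494 to 689 for the mean, 15 to 83 in untreated wells, 920 to 1116 against other compounds and 212 to 310 against the celastrol compounds. Leaving out untreated wells for the inhibitors, and inhibitor wells for the untreated ones, was added after seeing the data. The wells that moved a count by over 1.5 times were the plate B well of bortezomib (788), both ixazomib wells (24 and 60), both carfilzomib wells (14 and 14), the second DMSO well of plate A (57 with carfilzomib, 15 in untreated wells), the second DMSO well of plate B (26 in untreated wells), the plate A well of bortezomib (83 in untreated wells) and the plate B well of ixazomib against other compounds (920). HMOX1 for the mean of the inhibitors ranged from -0.34 to 0.0133 with 1 well left out, and turned sign without the second DMSO well of plate A (edgeR adjusted p 0.986). Apart from fewer wells where wells were left out, the cause of these shifts was not tested. Over all values and alternatives, 2093 values of single genes and of subunit counts kept direction and call, 281 lost the call, 11 moved and 1 turned. None of the 14 wells of the main fit was under the depth limit. Each compound had 1 well per plate.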

Other observations

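Of the immediate early and AP-1 list, 6 of 15 genes rose with bortezomib, or 3 without its well of plate A, and for the mean of the inhibitors 1 did. That gene was FOSL1, a FOS relative of AP-1, at 640.1 and 717 CPM with bortezomib, 457 and 479 with ixazomib, 545 and 422 with carfilzomib and 364, 309, 432 and 353 in DMSO, a rise of 0.64 ± 0.12 (adjusted p 0.000191). In the BCL2 family, 2 of 7 tested genes fell with bortezomib, where 9.06% of all genes were called higher and 9.93% lower. BNIP3L, a mitophagy receptor, was at 556 and 470.0 CPM with bortezomib against 1769.8, 1649.9, 1561 and 1299.7 in DMSO (-1.42 ± 0.14, adjusted p 8.6e-12), and ixazomib, at 1687 and 1398 CPM, had -0.01 ± 0.13 (0.993).

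Of 16 p53 targets, 1 rose and 1 fell with bortezomib, against 9.06% and 9.93% of all genes. Of 14 cholesterol synthesis genes 1 rose. The fall was not called without either bortezomib well, or without the second DMSO well of either plate. Without the bortezomib well of plate A the rise in cholesterol synthesis was not called. Few markers of the other lines of the series could be tested in U87 cells, 1 of the BT20 list and 2 of the LNCaP list, and none was called with an inhibitor in edgeR or DESeq2. At an unadjusted p under 0.05, the BT20 gene was higher with bortezomib and carfilzomib.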
